A study of Setaria italica with 18 samples.

Results

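The leaf transcriptomes of 2 foxtail millet (Setaria italica) varieties were compared after 12 h of saline-alkali stress, J12 vs B12. J12 is JK3, a salt-tolerant variety, and B12 is B175, a salt-sensitive variety. Both were taken after 12 h of 75% artificial seawater. The comparison held 6 of the 18 libraries of the series, 3 per variety, chosen by the variety and the hours in the column names of the deposited table. All 29108 genes of the table were considered, and the 23824 with a mean of at least 0.1 FPKM over the 18 libraries were tested. FPKM are fragments scaled by the length of the gene and by the fragments of the library counted on all genes. The other 12 libraries, J0 and J24 of JK3 and B0 and B24 of B175, were taken before stress and after 24 h, and they entered the fit and the comparison of times.

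The study grew seedlings with day and night of 12 h each to the stage of 3 leaves, treated them with diluted sea water, and sampled the second and the third leaves. Each variety is a single line, so a difference between J12 and B12 is a difference between these lines and not between tolerant and sensitive millets at large. The labels number 3 replicates per group and do not say which plants they hold, so p values measure the spread between these libraries. No library of untreated plants at 12 h was analysed here, so stress and time of day cannot be told apart within a variety.

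Sea water brings sodium and chloride together with alkalinity. Plants meet it by closing stomata under the hormone abscisic acid, by moving sodium out of the cytosol, by making osmolytes and protective proteins, and by slowing photosynthesis and growth. Calcium waves, jasmonate and transcription factors such as the DREB, WRKY and NAC families carry the signal. Many of the same kinases and factors also serve immunity, where receptor-like kinases read the cell surface and nucleotide-binding leucine-rich repeat (NBS-LRR) proteins guard the inside of the cell. NBS-LRR and receptor kinase genes often lie in clusters that differ between lines of a species.

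The 6 libraries held between 36453235 and 38798886 fragments counted on genes, as recovered from the steps between the FPKM values. Library pairs correlated at 0.978 to 0.988 within J12, at 0.981 to 0.986 within B12 and at 0.939 to 0.959 between the varieties (Pearson's r over tested genes on the log2 scale). Defining genes of C4 leaf mesophyll were abundant in both, with summed levels of 4390, 4179 and 3634 FPKM in J12, against 5962, 6002 and 4402 FPKM in B12. Bundle sheath genes summed to 1375, 1212 and 1324 FPKM in J12, against 1733, 2028 and 1839 FPKM in B12. Only 4 of 11 root markers passed the filter, and all 11 summed to 36.5, 31.7 and 38.3 FPKM in J12, against 40.7, 56.6 and 28.5 FPKM in B12. Leaf markers were thus present and root markers low in all 6 libraries. In leaf tissue, fewer cells of a type and less RNA per cell cannot be told apart. Both varieties were measured against 1 set of gene models, so less RNA of a gene and a poorer match of a variety's own sequence to that set cannot be told apart either.

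Genes were called by limma on log2(FPKM + 1) where the Benjamini-Hochberg adjusted p was under 0.05 and the absolute log2 fold change over 1. All fold changes are on this scale, which understates the change of low genes, and those of genes with no or few fragments in 1 variety depend on the added 1. Of the 23824 tested genes, 946 (3.97%) were called higher in J12 and 566 (2.38%) lower, 1512 (6.35%) in all. The median absolute log2 fold change of the called genes was 1.57. It passed 3 for 76 of the higher and 67 of the lower genes. The median over all tested genes was -0.04. Without B12 replicate 1 the higher genes numbered 624, and the lower ones 468. By the same rule 6.78% were higher and 6.02% lower in J0 vs B0, and 2.28% each way in J24 vs B24. The highest J12 library lay under the lowest B12 library for 17.9% of tested genes, and the lowest J12 library lay above the highest B12 library for 15.8%.

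The largest differences of genes with a described protein were in surface kinases, disease resistance proteins and a few enzymes. WALL-ASSOCIATED RECEPTOR KINASE 2 (Seita.7G061500), a kinase that spans the membrane and binds pectin of the cell wall, had 92.9, 153 and 108 FPKM in the J12 libraries, against 0.927, 0.736 and 1.20 FPKM in the B12 libraries (log2 fold change 5.90, SE 0.71, adjusted p = 3.03e-05). A WALL-ASSOCIATED RECEPTOR KINASE 5 gene (Seita.9G014400) had 41.5, 74.0 and 51.4 FPKM in the J12 libraries, against 0.0588, 0 and 0.802 FPKM in the B12 libraries (log2 fold change 5.47, SE 0.73, adjusted p = 9.77e-05). B12 was near 0 for both, and the lowest J12 library lay above 40 FPKM. The glutathione S-transferase GSTU6 (Seita.9G347000), a detoxifying enzyme that joins glutathione to reactive compounds, had 1031, 737 and 726 FPKM in the J12 libraries, against 22.6, 20.6 and 41.7 FPKM in the B12 libraries (log2 fold change 4.88, SE 0.58, adjusted p = 2.79e-05). This was the most abundant in J12 of the raised genes given in this paragraph. An RGA1 disease resistance gene (Seita.8G178300) had 44.0, 89.2 and 40.1 FPKM in the J12 libraries, against 1.97, 0.255 and 0.0553 FPKM in the B12 libraries (log2 fold change 5.12, SE 0.59, adjusted p = 2.03e-05). A B3 DNA-binding protein (Seita.9G166700) had 39.8, 29.1 and 29.2 FPKM in the J12 libraries, against 0.452, 0.303 and 0.128 FPKM in the B12 libraries (log2 fold change 4.69, SE 0.43, adjusted p = 1.37e-06). The 3 libraries of each variety stood far apart for each of these.

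A pair of neighbouring genes for palmitoyl-ACP thioesterase, which releases fatty acids from their carrier in the plastid, was found almost in J12 alone. Seita.9G276800 had 21.5, 30.8 and 22.0 FPKM in the J12 libraries, against 0, 0 and 0 FPKM in the B12 libraries (log2 fold change 4.67, SE 0.28, adjusted p = 1.5e-08). Against a floor of 3 fragments per library, the level was at least 68.8-fold higher in J12. Seita.9G276700 had 20.8, 27.9 and 21.9 FPKM in the J12 libraries, against 0.146, 0.0505 and 0 FPKM in the B12 libraries (log2 fold change 4.52, SE 0.21, adjusted p = 1.49e-09). Reads could be divided between neighbouring copies of like sequence, and how alike these genes are was not measured. The split between neighbours is thus uncertain here and in the gene clusters below.

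Lower in J12 were, first, disease resistance genes of chromosome 8. The RGA4 gene Seita.8G155500 had 0.0173, 0.0169 and 0.103 FPKM in the J12 libraries, against 181, 174 and 156 FPKM in the B12 libraries (log2 fold change -7.36, SE 0.84, adjusted p = 1.85e-05). This call was lost when the recovered fragments were fitted with limma voom (adjusted p = 0.0875), with the same direction. The neighbours Seita.8G162500, Seita.8G162600 and Seita.8G162700, which are described as RGA2 and RGA4 proteins, had log2 fold changes of -5.23, -5.94 and -5.13 (adjusted p at most 1.2e-08). Seita.8G162600 had 0.00860, 0.277 and 0.452 FPKM in the J12 libraries, against 79.8, 84.5 and 61.9 FPKM in the B12 libraries. CALMODULIN-BINDING PROTEIN 60 B (Seita.8G229000), a factor of calcium-dependent defence in Arabidopsis, had 0, 0.0184 and 0 FPKM in the J12 libraries, against 135, 111 and 94.5 FPKM in the B12 libraries (log2 fold change -6.82, SE 0.37, adjusted p = 5.03e-09). The cysteine protease SAG39 (Seita.8G226300), named for its rise in senescing rice leaves, had 0.0914, 0.0224 and 0.295 FPKM in the J12 libraries, against 35.6, 76.4 and 78.2 FPKM in the B12 libraries (log2 fold change -5.75, SE 0.51, adjusted p = 1.08e-06). J12 was at or near 0 for all 6 of these genes.

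A thioredoxin H (Seita.2G061900), which reduces disulfides of cytosolic proteins, was lower but present in J12. It had 24.1, 12.5 and 4.65 FPKM in the J12 libraries, against 939, 907 and 771 FPKM in the B12 libraries (log2 fold change -6.13, SE 0.56, adjusted p = 1.41e-06). The lowest B12 library was above the highest J12 library by a wide margin.

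**Figure D1:**
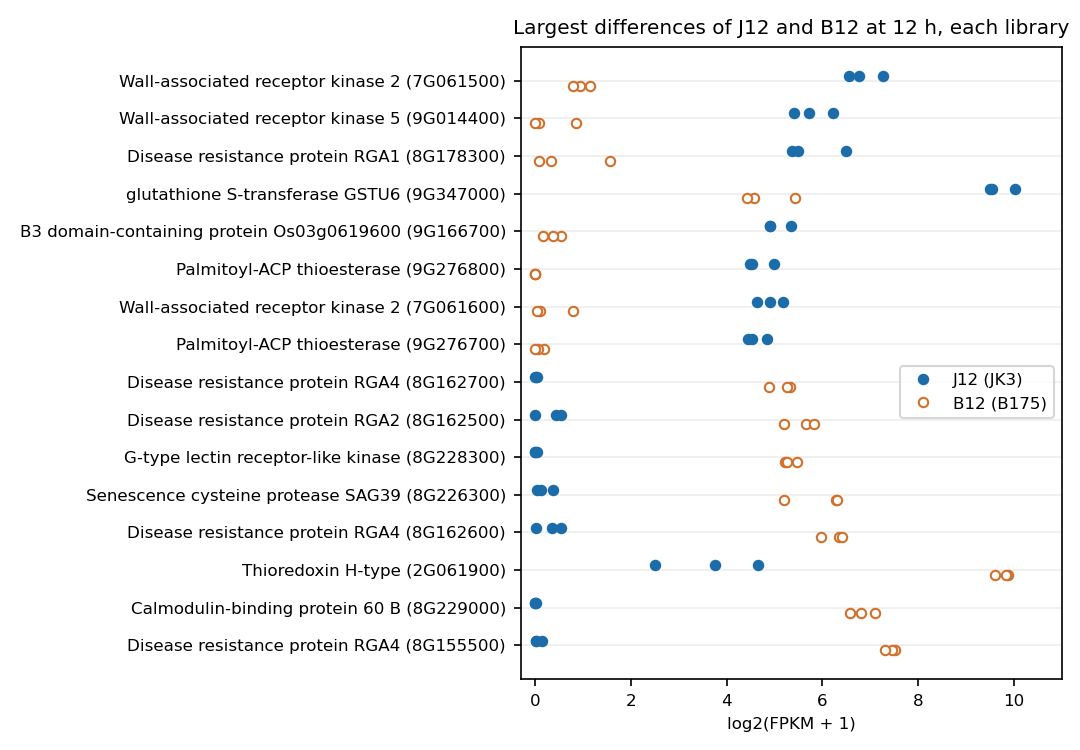
Levels of the 8 genes with the largest log2 fold change in each direction among called genes with a described protein, as log2(FPKM + 1) in each library. Filled points are the 3 J12 libraries and open points the 3 B12 libraries. The groups do not overlap for any of the 16 genes, and thioredoxin H is the lowered gene that J12 still holds at 4.65 to 24.1 FPKM.

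Genes of the photosystems and their light-harvesting antennae were called in 1 direction. Of 56 tested members, 23 (41.1%) were called lower and none higher (0 higher also at an unadjusted p under 0.05 in limma, and 0 in limma voom), against 2.38% of all tested genes. The median log2 fold change of the list was -0.88. The members together held 8927, 8507 and 8592 FPKM in J12, against 20706, 22524 and 15110 FPKM in B12. The chlorophyll a-b binding protein Seita.9G177100, an antenna protein that passes light energy to the reaction centre, had 103, 100.9 and 92.5 FPKM in the J12 libraries, against 655, 531 and 364 FPKM in the B12 libraries (log2 fold change -2.33, SE 0.33, adjusted p = 0.000196). The CP24 antenna protein (Seita.7G121800) had 14.1, 13.3 and 21.8 FPKM in the J12 libraries, against 119, 82.0 and 41.4 FPKM in the B12 libraries (log2 fold change -2.14, SE 0.34, adjusted p = 0.000564). In both genes B12 replicate 3 was the lowest of its group.

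The called members included both photosystems. Photosystem I subunit PsaK (Seita.2G031300), which helps to dock the antenna, had 187, 146 and 231 FPKM in the J12 libraries, against 661, 798 and 647 FPKM in the B12 libraries (log2 fold change -1.91, SE 0.31, adjusted p = 0.000731). Photosystem I subunit O (Seita.7G092700) had 159.5, 115 and 173 FPKM in the J12 libraries, against 574, 649 and 451 FPKM in the B12 libraries (log2 fold change -1.90, SE 0.32, adjusted p = 0.000944). The oxygen-evolving enhancer protein 1 (Seita.5G172700), which holds the manganese cluster that splits water, had 441, 428 and 405 FPKM in the J12 libraries, against 996, 939.6 and 657 FPKM in the B12 libraries (log2 fold change -1.0, SE 0.26, adjusted p = 0.0228). It was not called without J12 replicate 1, J12 replicate 2, J12 replicate 3, B12 replicate 1 or B12 replicate 2 (adjusted p 0.0569 to 0.101). The 22 kDa protein of photosystem II (Seita.5G395300), the sensor that turns excess light into heat, had 18.9, 21.6 and 17.3 FPKM in the J12 libraries, against 90.5, 84.3 and 25.9 FPKM in the B12 libraries (log2 fold change -1.56, SE 0.40, adjusted p = 0.0205). It was not called without J12 replicate 1, J12 replicate 3, B12 replicate 1 or B12 replicate 2 (adjusted p 0.06 to 0.111), nor with a fit of J12 and B12 alone (adjusted p = 0.0746). All genes of this paragraph, and CP24 above, were chosen after their values were seen.

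B12 replicate 3 was the lowest B12 library in 23 of the 23 lowered photosystem genes, and J12 replicate 2 the lowest J12 library in 15. When any 1 library was left out, between 15 and 22 members were lower, with 15 without B12 replicate 1 or B12 replicate 2. At 12 h 3.97% of all tested genes were higher and 2.38% lower. Of the mesophyll markers 1 of 13 was higher and none lower (5 lower at an unadjusted p under 0.05 in limma, 1 in limma voom). Of the bundle sheath markers 2 of 18 were lower and none higher (2 higher at an unadjusted p under 0.05 in limma, 0 in limma voom). Counts of so few markers cannot be set apart from these shares. The part of the cell make-up of the leaf in the photosystem counts was not tested. The difference was present before stress as well. In J0 vs B0, 31 of the 56 members were called lower, against 6.02% of all tested genes, and in J24 vs B24 3 were, against 2.28%. The variety difference at 12 h minus that at 0 h, tested as an interaction, was called for 1 member (at an adjusted p under 0.05 alone), so a change of the difference over the first 12 h was not shown for the others.

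Enzymes of carbon fixation were called in both directions. Of 51 tested genes of the Calvin cycle and the C4 pathway, 5 were lower and 1 was higher, against 2.38% lower and 3.97% higher of all tested genes, with a median log2 fold change of -0.40. Only 1 was lower without B12 replicate 2, 2 without J12 replicate 2 or J12 replicate 3, and 3 without J12 replicate 1 or B12 replicate 1. The raised gene was not called without J12 replicate 2 or B12 replicate 2. Phosphoribulokinase (Seita.1G283800), which regenerates the acceptor of CO2, had 50.1, 37.2 and 54.5 FPKM in the J12 libraries, against 113, 134 and 100.7 FPKM in the B12 libraries (log2 fold change -1.28, SE 0.26, adjusted p = 0.00387). A small subunit of Rubisco (Seita.3G269600), which is also a bundle sheath marker, had 197, 211 and 179.9 FPKM in the J12 libraries, against 445, 603 and 340.0 FPKM in the B12 libraries (log2 fold change -1.20, SE 0.33, adjusted p = 0.0294). It was not called without J12 replicate 1, J12 replicate 2, J12 replicate 3, B12 replicate 1 or B12 replicate 2 (adjusted p 0.0689 to 0.136). A carbonic anhydrase (Seita.5G240100), which supplies bicarbonate to the first C4 enzyme, went the other way with 156, 195 and 189 FPKM in the J12 libraries, against 94.2, 77.5 and 86.3 FPKM in the B12 libraries (log2 fold change 1.05, SE 0.21, adjusted p = 0.00335). It was not called without J12 replicate 2 or B12 replicate 2 (log2 fold change 0.98 to 0.99).

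Of all tested genes 2.38% were lower and 3.97% higher. Among 30 genes of chlorophyll synthesis and breakdown, 2 were lower and none was higher (0 at an unadjusted p under 0.05 in limma, and 0 in limma voom). They were the ChlI subunit of magnesium chelatase (Seita.7G290300), which puts magnesium into the pigment, at -1.53 on the log2 scale (adjusted p = 0.00235), and the cyclase of magnesium-protoporphyrin ester (Seita.5G040100) with -1.36 (adjusted p = 0.000286). Magnesium chelatase had 46.8, 57.9 and 43.3 FPKM in J12, against 145, 177 and 114 FPKM in B12. The cyclase gene was chosen after its values were seen.

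**Figure D2:**
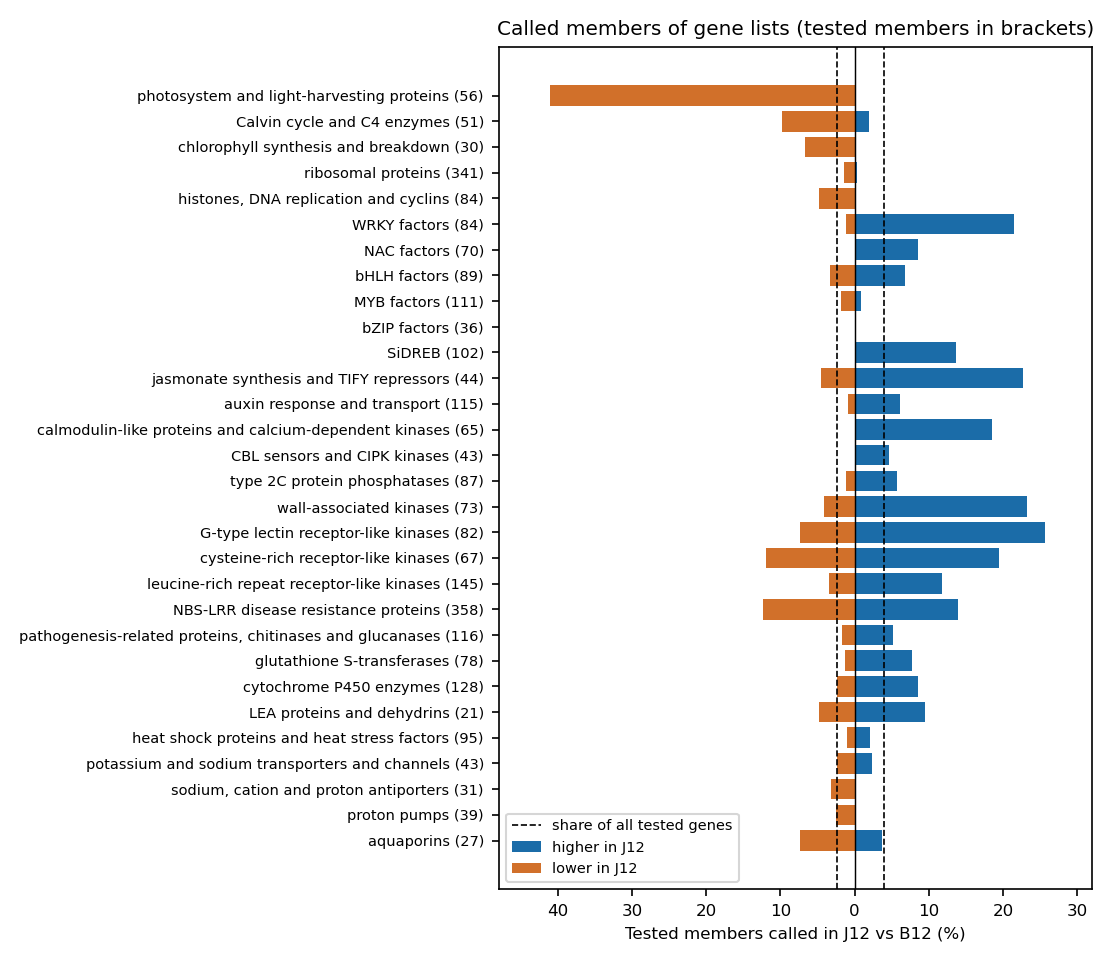
Percent of the tested members of each gene list that were called in J12 vs B12, higher to the right and lower to the left of 0, with the number of tested members in brackets. The dashed lines give the share of all tested genes, 3.97% higher and 2.38% lower, and photosystem genes reach 41.1% on the lower side.

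Transcription factors of the WRKY family, which bind the W-box of defence and senescence genes, were called mostly higher. Of 84 tested members 18 (21.4%) were higher, against 3.97% of all tested genes, and 1 was lower. The median log2 fold change was 0.37. WRKY71 (Seita.4G197100) had 50.8, 85.4 and 77.3 FPKM in the J12 libraries, against 7.997, 15.6 and 18.9 FPKM in the B12 libraries (log2 fold change 2.29, SE 0.60, adjusted p = 0.0211), and it was not called without J12 replicate 2, J12 replicate 3 or B12 replicate 1 (adjusted p 0.0661 to 0.101). WRKY75 (Seita.8G123100), known in Arabidopsis for phosphate starvation and leaf senescence, had 109, 127 and 121 FPKM in the J12 libraries, against 25.3, 25.8 and 43.7 FPKM in the B12 libraries (log2 fold change 1.92, SE 0.29, adjusted p = 0.000332). WRKY51 (Seita.1G154200) had 62.5, 56.4 and 59.0 FPKM in the J12 libraries, against 8.04, 16.1 and 18.0 FPKM in the B12 libraries (log2 fold change 2.07, SE 0.39, adjusted p = 0.00264). Both of these kept a gap of over 15 FPKM between the groups and were chosen after their values were seen.

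The 1 lowered factor, described as WRKY19 (Seita.7G302500), had 13.2, 22.1 and 14.0 FPKM in the J12 libraries, against 36.6, 67.9 and 36.8 FPKM in the B12 libraries (log2 fold change -1.44, SE 0.33, adjusted p = 0.0103), and it was not called without B12 replicate 2 (adjusted p = 0.0612). B12 replicate 1 was the lowest B12 library in 17 of the 18 raised WRKY genes. Without it 8 of the 18 were called higher, and without J12 replicate 2 9 were. At 0 h 25 WRKY genes were called higher in J0, against 6.78% of all tested genes, and at 24 h 6 in J24, against 2.28%. The interaction with 0 h was called for 6 members, each with a more negative difference at 12 h.

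NAC factors, plant-specific regulators of stress and senescence, were called higher for 6 of 70 members, against 3.97% of all tested genes. None was called lower (2 lower at an unadjusted p under 0.05 in limma, 0 in limma voom), against 2.38%. NAC90 (Seita.3G225400) had 41.1, 74.9 and 21.4 FPKM in the J12 libraries, against 1.91, 6.37 and 10.6 FPKM in the B12 libraries (log2 fold change 2.72, SE 0.63, adjusted p = 0.0103), and it was not called without J12 replicate 2 or B12 replicate 1 (adjusted p 0.0628 to 0.0637). A second gene of that description (Seita.8G036100), chosen after its values were seen, had 7.79, 15.9 and 11.8 FPKM in the J12 libraries, against 0.983, 0.558 and 1.56 FPKM in the B12 libraries (log2 fold change 2.64, SE 0.44, adjusted p = 0.000976). Without B12 replicate 1 the count of NAC genes was 2, and without J12 replicate 2 it was 3. At 0 h 19 of the 70 were called higher in J0, against 6.78% of all tested genes, and at 24 h 4 in J24, against 2.28%. The median log2 fold change was 0.59 at 0 h and 0.25 at 12 h. The interaction with 0 h was called for 8 NAC genes, each with a more negative difference at 12 h. Of 111 MYB factors 1 was higher and 2 were lower, against 3.97% and 2.38% of all tested genes. Of 36 bZIP factors, the family that holds the abscisic acid response factors, none was called (2 higher and 3 lower at an unadjusted p under 0.05 in limma, 0 in limma voom).

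Jasmonate is made from plastid lipids by lipoxygenase and allene oxide synthase, and TIFY (JAZ) proteins repress its response until the hormone has them degraded. The TIFY genes are themselves early targets of jasmonate. Of 44 tested members of this list 10 (22.7%) were higher in J12 and 2 were lower, against 3.97% and 2.38% of all tested genes. TIFY 11f (Seita.9G252300) had 11.7, 15.2 and 4.85 FPKM in the J12 libraries, against 0, 0.162 and 0.411 FPKM in the B12 libraries (log2 fold change 3.17, SE 0.62, adjusted p = 0.00316). This call was lost with limma voom on recovered fragments (log2 fold change 6.17, adjusted p = 0.0681). TIFY 11b (Seita.9G517900) had 345, 323 and 292 FPKM in the J12 libraries, against 44.0, 91.6 and 70.0 FPKM in the B12 libraries (log2 fold change 2.26, SE 0.51, adjusted p = 0.00928), and it was not called without B12 replicate 1 (adjusted p = 0.0536). TIFY 11e (Seita.9G251600) had 105, 182 and 92.9 FPKM in the J12 libraries, against 12.4, 25.3 and 15.1 FPKM in the B12 libraries (log2 fold change 2.77, SE 0.56, adjusted p = 0.00398). J12 stood above B12 in every library for these repressors.

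Enzymes of jasmonate synthesis were raised too. Allene oxide synthase 1 (Seita.9G077900), which makes an unstable precursor, had 95.7, 123 and 86.8 FPKM in the J12 libraries, against 21.2, 27.4 and 18.98 FPKM in the B12 libraries (log2 fold change 2.13, SE 0.46, adjusted p = 0.00626). Lipoxygenase 5 (Seita.7G113700), which oxidises the fatty acid, had 29.9, 70.6 and 29.3 FPKM in the J12 libraries, against 9.25, 8.07 and 5.09 FPKM in the B12 libraries (log2 fold change 2.29, SE 0.49, adjusted p = 0.00622). J12 replicate 2 was the highest J12 library in 9 of the 10 raised members. When any 1 library was left out, 8 to 11 members were called higher. Between 1 and 3 were called lower, with 1 without J12 replicate 2, J12 replicate 3, B12 replicate 1 or B12 replicate 2. Both lowered members are described as 9S-lipoxygenases, which serve another branch of lipid oxidation, and linoleate 9S-lipoxygenase 4 (Seita.9G127600) had 7.72, 6.57 and 5.22 FPKM in the J12 libraries, against 31.9, 52.7 and 18.7 FPKM in the B12 libraries (log2 fold change -2.14, SE 0.57, adjusted p = 0.0238). It was not called without J12 replicate 2, J12 replicate 3, B12 replicate 1 or B12 replicate 2 (adjusted p 0.0692 to 0.113), nor with a pseudocount of 0.1 (adjusted p = 0.0657). Apart from TIFY 11f and this lipoxygenase, the genes of the jasmonate list were chosen after their values were seen.

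The jasmonate list had other counts at the other times. In J0 vs B0 2 of the 44 members were called higher and 3 lower, against 6.78% and 6.02% of all tested genes. In J24 vs B24 none was higher and 1 was lower, against 2.28% each way. The interaction with 0 h was called for 10 members, 9 with a more positive difference at 12 h. TIFY 11f was lower in JK3 before stress (log2 fold change -2.43) and higher at 12 h (interaction 5.60, SE 0.88, adjusted p = 0.00162). TIFY 11a (Seita.9G518100) turned in the same way, with -1.99 at 0 h and 2.77 at 12 h (interaction 4.76, SE 0.59, adjusted p = 0.000334). It had 17.4, 29.3 and 21.4 FPKM in J12, against 3.99, 3.36 and 0.797 FPKM in B12.

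DREB factors bind the dehydration-responsive element and switch on genes for cold, drought and salt. The SiDREB list of the study also holds genes described as ethylene-responsive factors, such as ERF3 and ERF4, and as AP2-like proteins. Its counts are thus not of genes described as DREB proteins alone. The study numbered 166 SiDREBs, of which 128 were in the table and 102 were tested. Of these, 14 (13.7%) were higher in J12 and none was lower (5 lower at an unadjusted p under 0.05 in limma, 0 in limma voom), against 3.97% and 2.38% of all tested genes. SiDREB128 (Seita.7G205200), described as a DREB 1E protein of the cold-response type, had 120.4, 90.7 and 56.2 FPKM in the J12 libraries, against 0.661, 20.4 and 18.99 FPKM in the B12 libraries (log2 fold change 3.27, SE 0.88, adjusted p = 0.0254). SiDREB112 (Seita.6G181700), described as ERF109, had 33.1, 55.3 and 12.96 FPKM in the J12 libraries, against 0.600, 5.59 and 3.22 FPKM in the B12 libraries (log2 fold change 3.08, SE 0.67, adjusted p = 0.00694). SiDREB46 (Seita.2G279800), described as DREB 1B, had 25.9, 16.7 and 8.42 FPKM in the J12 libraries, against 0.387, 3.14 and 1.99 FPKM in the B12 libraries (log2 fold change 2.67, SE 0.64, adjusted p = 0.0128). B12 replicate 1 held the least of each, and the groups did not overlap.

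The SiDREB calls rested on few libraries. SiDREB128 was not called without J12 replicate 1, J12 replicate 2 or B12 replicate 1 (adjusted p 0.0795 to 0.122), nor with a fit of J12 and B12 alone (adjusted p = 0.0781), and SiDREB46 was not called without J12 replicate 1 or B12 replicate 1 (adjusted p 0.0618 to 0.0731). B12 replicate 1 was the lowest B12 library in 13 of the 14 raised SiDREBs, and J12 replicate 3 the lowest J12 library in 10. Without B12 replicate 1 only 1 SiDREB was called higher, without J12 replicate 1 3 were, and without J12 replicate 2 7 were. With median-ratio scaling 9 were. The median log2 fold change of the 102 was 0.17, against -0.04 over all tested genes. SiDREB112 and SiDREB46 were chosen after their values were seen.

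SiDREB77 (Seita.4G060700) was also called higher in JK3 before stress. It had 15.3, 45.2 and 20.4 FPKM in J0, against 2.10, 2.01 and 2.95 FPKM in B0, and 49.6, 35.2 and 43.1 FPKM in J12, against 12.1, 21.0 and 21.3 FPKM in B12 (log2 fold change 2.93 at 0 h and 1.22 at 12 h). It was not called without J12 replicate 1 or B12 replicate 1 (adjusted p 0.0658 to 0.0887). Its difference was smaller at 12 h than at 0 h (interaction -1.71, SE 0.42, adjusted p = 0.0272). It was chosen after its values were seen. Over the 102 tested SiDREBs, the interaction with 0 h was called with a more positive difference at 12 h for 13 and a more negative one for 3.

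SiDREB153, SiDREB80 and SiDREB159, which the study discusses for saline-alkali stress among others, were not called at 12 h. SiDREB153 (Seita.9G323300) had 18.0, 17.9 and 13.3 FPKM in the J12 libraries, against 7.21, 12.4 and 12.1 FPKM in the B12 libraries (log2 fold change 0.61, SE 0.28, adjusted p = 0.208), with groups that did not overlap. It had been lower in JK3 at 0 h (log2 fold change -1.67), and the difference changed between the times (interaction 2.28, SE 0.40, adjusted p = 0.00354). SiDREB80 (Seita.4G092200) had 236, 293 and 224 FPKM in the J12 libraries, against 101.3, 159 and 166 FPKM in the B12 libraries (log2 fold change 0.84, SE 0.29, adjusted p = 0.0816). SiDREB159 (Seita.9G509400) had 12.1, 9.42 and 6.71 FPKM in the J12 libraries, against 5.38, 5.96 and 17.8 FPKM in the B12 libraries (log2 fold change 0.11, SE 0.64, adjusted p = 0.955), with overlapping groups and a sign that depended on single libraries.

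Calcium sensors and calcium-driven kinases were called in 1 direction. Calmodulin-like proteins (CML) bind calcium and pass the signal on, and calcium-dependent protein kinases carry sensor and kinase in 1 chain. Of 65 members 12 (18.5%) were called higher and none lower (5 lower at an unadjusted p under 0.05 in limma, 0 in limma voom), against 3.97% and 2.38% of all tested genes, with a median log2 fold change of 0.34. CML19 (Seita.9G333800) had 22.7, 24.7 and 14.1 FPKM in the J12 libraries, against 0.834, 1.505 and 3.30 FPKM in the B12 libraries (log2 fold change 2.96, SE 0.44, adjusted p = 0.000315). CML27 (Seita.9G415800) had 368, 289 and 324 FPKM in the J12 libraries, against 109, 128 and 143 FPKM in the B12 libraries (log2 fold change 1.37, SE 0.18, adjusted p = 8.01e-05). Calcium-dependent protein kinase 4 (Seita.1G102100) had 210.4, 358 and 224 FPKM in the J12 libraries, against 75.2, 70.6 and 92.8 FPKM in the B12 libraries (log2 fold change 1.69, SE 0.27, adjusted p = 0.000581). The lowest J12 library was above the highest B12 library in each.

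CML27 was called lower in JK3 at 0 h (log2 fold change -1.19) and higher at 12 h (interaction 2.55, SE 0.25, adjusted p = 4.82e-05). B12 replicate 1 was the lowest B12 library in 10 of the 12 raised members, and 7 were called without it. CBL sensors and CIPK kinases, the family of the SOS pathway of sodium export, had 2 of 43 members higher, against 3.97% of all tested genes. None was lower (4 lower at an unadjusted p under 0.05 in limma, 1 in limma voom), against 2.38%. The raised ones were CIPK32 (Seita.8G171900), with 5.63, 6.39 and 4.65 FPKM in the J12 libraries, against 0.134, 0.149 and 0.0531 FPKM in the B12 libraries (log2 fold change 2.55, SE 0.15, adjusted p = 1.25e-08), and CIPK29 (Seita.2G431900), with 81.1, 84.0 and 77.4 FPKM in J12, against 22.2, 37.8 and 24.6 FPKM in B12 (log2 fold change 1.52, adjusted p = 0.00143). CML27, kinase 4 and CIPK29 were chosen after their values were seen.

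**Figure D3:**
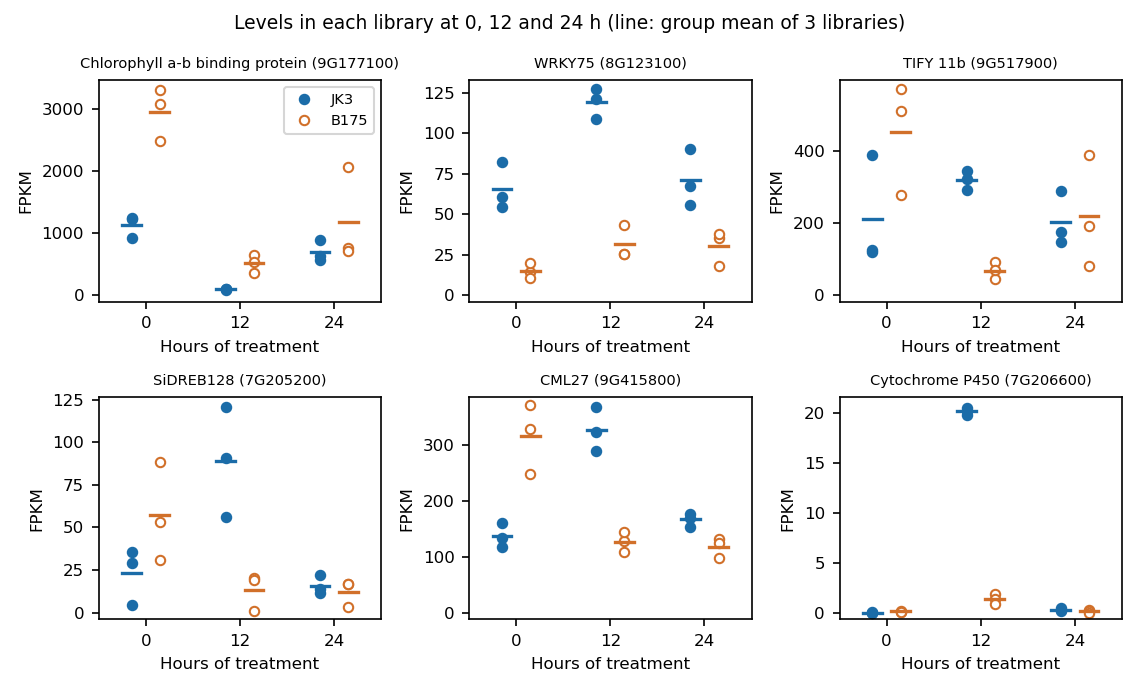
FPKM of 6 genes in each library at 0, 12 and 24 h, with JK3 as filled points left of B175 as open points, and a line at the mean of 3 libraries. The antenna protein is lower in JK3 at 0 and 12 h, WRKY75 is higher at all 3 times, and cytochrome P450 704C1 reaches 19.8 to 20.5 FPKM only in J12.

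Receptor-like kinases were called in both directions, and mainly higher. Of 657 tested members 99 (15.1%) were higher and 28 (4.26%) were lower, against 3.97% and 2.38% of all tested genes. Without J12 replicate 2, which was the highest J12 library in 72 of the 99, 64 were called higher. At 0 h 128 members were higher, against 6.78% of all tested genes, and at 24 h 81, against 2.28%.

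Wall-associated kinases had 17 of 73 members higher and 3 lower, against 3.97% and 2.38% of all tested genes. Without J12 replicate 2, the highest J12 library in 16 of the 17, 11 were higher. A cluster on chromosome 7 between Seita.7G061400 and Seita.7G062700 held 7 tested genes, of which 5 were higher and 1 was lower. The cluster was chosen after its values were seen, with called genes at its ends, so its counts follow in part from that choice. In that cluster Seita.7G061600 had 23.8, 35.1 and 29.0 FPKM in the J12 libraries, against 0.0780, 0.0325 and 0.741 FPKM in the B12 libraries (log2 fold change 4.59, SE 0.55, adjusted p = 3.41e-05). Seita.7G061900, between these, had 0.0119, 0.0930 and 0.0236 FPKM in the J12 libraries, against 8.54, 7.31 and 9.02 FPKM in the B12 libraries (log2 fold change -3.15, SE 0.28, adjusted p = 9.49e-07). The 5 raised neighbours had log2 fold changes of 3.04 to 5.90. Those of them other than Seita.7G061500 and Seita.7G061600 were chosen after their values were seen.

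G-type lectin kinases, whose outer part resembles mannose-binding lectins, had 21 of 82 higher and 6 lower, against 3.97% and 2.38% of all tested genes. Seita.9G299800 had 35.4, 58.6 and 43.8 FPKM in the J12 libraries, against 9.15, 8.18 and 12.8 FPKM in the B12 libraries (log2 fold change 2.08, SE 0.42, adjusted p = 0.00432). At the other end, Seita.8G228300 had 0, 0 and 0.0350 FPKM in the J12 libraries, against 36.3, 43.3 and 37.5 FPKM in the B12 libraries (log2 fold change -5.30, SE 0.29, adjusted p = 5.03e-09). Its difference was larger at 12 h than at 24 h (interaction -2.04, SE 0.40, adjusted p = 0.0436).

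Cysteine-rich kinases, which are tied to reactive oxygen signals, had 13 of 67 higher and 8 lower, against 3.97% and 2.38% of all tested genes. The count of higher members was 8 without J12 replicate 2 or without B12 replicate 2. Kinase 28 (Seita.8G186100) had 14.3, 23.9 and 17.3 FPKM in the J12 libraries, against 0.736, 0.300 and 0.569 FPKM in the B12 libraries (log2 fold change 3.65, SE 0.31, adjusted p = 5.85e-07), while a kinase 12 gene (Seita.8G089800) had 1.44, 1.33 and 1.85 FPKM in the J12 libraries, against 33.4, 25.3 and 18.0 FPKM in the B12 libraries (log2 fold change -3.35, SE 0.24, adjusted p = 1e-07). Leucine-rich repeat kinases had 17 of 145 higher and 5 lower, against 3.97% and 2.38% of all tested genes. Without J12 replicate 2 or B12 replicate 1, 10 were higher. Seita.7G237700 had 44.5, 69.2 and 43.7 FPKM in the J12 libraries, against 4.03, 0.914 and 2.21 FPKM in the B12 libraries (log2 fold change 4.06, SE 0.30, adjusted p = 1.62e-07). Seita.5G105900 had 1.06, 1.04 and 1.37 FPKM in the J12 libraries, against 43.4, 47.5 and 41.5 FPKM in the B12 libraries (log2 fold change -4.39, SE 0.26, adjusted p = 1.31e-08). L-type lectin kinases had 6 of 51 higher, against 3.97% of all tested genes. None was lower (2 lower at an unadjusted p under 0.05 in limma, 0 in limma voom), against 2.38%.

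NBS-LRR disease resistance genes went both ways. Of 358 tested members 50 (14.0%) were higher and 44 (12.3%) were lower, against 3.97% and 2.38% of all tested genes, with a median log2 fold change of 0.05. Counts when 1 library was left out were at least 40 higher and 42 lower. The counts at the other times were 61 higher and 44 lower at 0 h, against 6.78% and 6.02% of all tested genes, and 39 higher and 36 lower at 24 h, against 2.28% each way. RGA5 (Seita.8G192200), a sensor of the rice blast fungus in rice, had 41.2, 43.4 and 55.0 FPKM in the J12 libraries, against 2.15, 0.781 and 1.08 FPKM in the B12 libraries (log2 fold change 4.38, SE 0.50, adjusted p = 1.76e-05). A second RGA5 gene (Seita.8G199900) had 20.3, 18.1 and 20.3 FPKM in J12, against 2.17, 1.29 and 0.752 FPKM in B12 (log2 fold change 3.14, adjusted p = 2.87e-07). These were chosen after their values were seen, and the lowered RGA genes of chromosome 8 are given above.

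Of 116 pathogenesis-related proteins, chitinases and glucanases, which act on the invader itself, 6 were higher and 2 were lower, against 3.97% and 2.38% of all tested genes. The counts were 3 higher and 5 lower without B12 replicate 1. A glucan endo-1,3-beta-glucosidase 14 gene (Seita.7G090400), an enzyme that cuts callose and fungal glucan, had 30.5, 61.1 and 14.5 FPKM in the J12 libraries, against 1.53, 2.93 and 2.87 FPKM in the B12 libraries (log2 fold change 3.21, SE 0.49, adjusted p = 0.000399). An acidic glucanase (Seita.5G448000) had 223, 425 and 237 FPKM in the J12 libraries, against 58.1, 45.6 and 63.9 FPKM in the B12 libraries (log2 fold change 2.33, SE 0.55, adjusted p = 0.0116), and it was not called without J12 replicate 2 (adjusted p = 0.064). Endochitinase A (Seita.7G150400) had 0.225, 0.0944 and 1.73 FPKM in the J12 libraries, against 2.32, 13.5 and 22.2 FPKM in the B12 libraries (log2 fold change -2.75, SE 0.69, adjusted p = 0.0167), and it was not called without J12 replicate 1, J12 replicate 2, B12 replicate 2 or B12 replicate 3 (adjusted p 0.0614 to 0.0843), nor with a fit of J12 and B12 alone or limma voom on recovered fragments (adjusted p 0.059 to 0.0929). The acidic glucanase was chosen after its values were seen. NDR1/HIN1-like protein 3 (Seita.3G008300), a membrane protein of the family that signals for disease resistance, was among the 5 genes with the largest gain in mean FPKM and had 1589, 2083 and 1077 FPKM in the J12 libraries, against 174, 436 and 432 FPKM in the B12 libraries (log2 fold change 2.25, SE 0.47, adjusted p = 0.0053).

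In the abscisic acid pathway 1 kinase was called. Type 2C phosphatases were counted as a whole family, and which of them act in this pathway was not determined. None of 13 genes of its synthesis and breakdown was called (2 higher and 2 lower at an unadjusted p under 0.05 in limma, 0 in limma voom), and none of 7 receptor genes was (2 lower at an unadjusted p under 0.05, 0 in limma voom). SAPK10 (Seita.9G169200), a SnRK2 kinase that abscisic acid releases from its inhibitor, had 99.6, 100.04 and 87.2 FPKM in the J12 libraries, against 35.3, 38.0 and 30.4 FPKM in the B12 libraries (log2 fold change 1.44, SE 0.16, adjusted p = 1.45e-05), and it was the only 1 of 11 SnRK2 genes called. Of 87 type 2C phosphatases, which include inhibitors of these kinases, 5 were higher and 1 lower, against 3.97% and 2.38% of all tested genes. The count of higher ones was 1 without J12 replicate 2, 2 without B12 replicate 1 and 3 without any other single library except B12 replicate 3. PP2C37 (Seita.6G005300) had 9.21, 6.16 and 8.27 FPKM in the J12 libraries, against 21.8, 10.7 and 28.7 FPKM in the B12 libraries (log2 fold change -1.18, SE 0.28, adjusted p = 0.0134), and it was not called without J12 replicate 2, B12 replicate 1 or B12 replicate 3 (adjusted p 0.0617 to 0.0702), nor with a fit of J12 and B12 alone (adjusted p = 0.0767). It had been higher in JK3 at 0 h (log2 fold change 3.00), so the direction turned (interaction -4.18, SE 0.40, adjusted p = 4.56e-05). PP2C32 (Seita.9G440500) had 217, 155 and 107 FPKM in J12, against 18.6, 50.2 and 51.8 FPKM in B12 (log2 fold change 2.04, SE 0.63, adjusted p = 0.0496), and it was not called without J12 replicate 1, J12 replicate 2, J12 replicate 3, B12 replicate 1, B12 replicate 2 or B12 replicate 3 (adjusted p 0.0641 to 0.207), nor with a pseudocount of 0.1, no minimum level, median-ratio scaling, the replicate block or limma voom on recovered fragments (adjusted p 0.0545 to 0.0796).

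LEA proteins and dehydrins, which keep other proteins and membranes in shape when water is short, had 2 of 21 members higher and 1 lower at 12 h, against 3.97% and 2.38% of all tested genes. At 0 h 8 were higher and 1 was lower, against 6.78% and 6.02%. The interaction with 0 h was called for 8 of the 21, with a more positive difference at 12 h for 2 and a more negative one for 6. Lea5-A (Seita.5G021400) had 19.1, 11.96 and 19.96 FPKM in the J12 libraries, against 2.99, 1.603 and 0.896 FPKM in the B12 libraries (log2 fold change 2.71, SE 0.45, adjusted p = 0.000942). This call was lost with limma voom on recovered fragments (log2 fold change 3.28, adjusted p = 0.123). Lea14-A (Seita.3G130700), chosen after its values were seen, had 328, 562 and 199.7 FPKM in the J12 libraries, against 73.9, 100.9 and 72.3 FPKM in the B12 libraries (log2 fold change 2.02, SE 0.35, adjusted p = 0.00138). LEA31 (Seita.4G159500) had 3.58, 5.05 and 8.39 FPKM in the J12 libraries, against 16.6, 12.8 and 16.4 FPKM in the B12 libraries (log2 fold change -1.34, SE 0.35, adjusted p = 0.0201), and it was not called without J12 replicate 1, J12 replicate 2, B12 replicate 1 or B12 replicate 3 (adjusted p 0.0635 to 0.0959). It had been higher in JK3 at 0 h (log2 fold change 3.16), and the difference turned (interaction -4.50, SE 0.49, adjusted p = 0.000119). Of 95 heat shock proteins and heat stress factors 2 were higher and 1 was lower at 12 h, and none was higher without J12 replicate 3 or B12 replicate 1. At 0 h 28 were higher and 0 lower, against 6.78% and 6.02% of all tested genes. The interaction was called for 16 of the 95, each with a more negative difference at 12 h.

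Transporters that move sodium, potassium, protons and water were mostly not called, against 3.97% higher and 2.38% lower of all tested genes. Of 43 potassium and sodium transporters and channels 1 was higher and 1 was lower. Potassium transporter 19 (Seita.7G082800) had 0.518, 0.236 and 0.446 FPKM in the J12 libraries, against 2.46, 2.64 and 2.16 FPKM in the B12 libraries (log2 fold change -1.29, SE 0.15, adjusted p = 2.03e-05). Among 31 sodium, cation and proton antiporters 1 was lower and none higher (1 higher at an unadjusted p under 0.05 in limma, 0 in limma voom). That was cation/calcium exchanger 1 (Seita.9G244700), with 12.3, 9.74 and 10.1 FPKM in J12, against 29.6, 26.3 and 18.0 FPKM in B12 (log2 fold change -1.11, adjusted p = 0.00892), and it was not called without B12 replicate 1 (adjusted p = 0.053). Of 39 proton pump genes a V-type ATPase subunit E (Seita.5G017200) had 13.4, 7.66 and 10.9 FPKM in J12, against 21.9, 27.2 and 21.7 FPKM in B12 (log2 fold change -1.10, adjusted p = 0.00311), and it was not called without J12 replicate 2 or B12 replicate 2 (log2 fold change -1.0 to -0.90). Of 27 aquaporins SIP1-1 (Seita.8G085300) was higher, with 63.6, 65.1 and 63.3 FPKM in J12, against 20.01, 25.0 and 32.3 FPKM in B12 (log2 fold change 1.31, adjusted p = 0.00432), and 2 were lower. The lowered TIP2-2 (Seita.4G160700), a water channel of the vacuole, had 9.94, 3.00 and 9.18 FPKM in J12, against 11.7, 24.5 and 29.0 FPKM in B12 (log2 fold change -1.48, SE 0.36, adjusted p = 0.0154), and it was not called without J12 replicate 2, B12 replicate 2 or B12 replicate 3 (adjusted p 0.0661 to 0.0829), nor with a fit of J12 and B12 alone (adjusted p = 0.0981).

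Genes of osmolyte synthesis held 1 call in each direction. None of 7 genes of proline and glycine betaine synthesis was called (2 higher and 1 lower at an unadjusted p under 0.05 in limma, 0 in limma voom). At 0 h 4 of the 7 had been higher in JK3, against 6.78% of all tested genes. Of 30 genes for trehalose, galactinol and raffinose 1 was higher and 1 was lower, against 3.97% and 2.38% of all tested genes. Trehalose-phosphate phosphatase 7 (Seita.2G188200), which makes trehalose from its phosphate, had 141, 156 and 76.6 FPKM in the J12 libraries, against 13.8, 33.9 and 42.3 FPKM in the B12 libraries (log2 fold change 2.09, SE 0.46, adjusted p = 0.00737). The raffinose-type galactosyltransferase Seita.7G139800 had 21.5, 17.6 and 15.3 FPKM in the J12 libraries, against 49.1, 48.7 and 60.1 FPKM in the B12 libraries (log2 fold change -1.49, SE 0.30, adjusted p = 0.00387). The small hydrophobic membrane protein LTI6B (Seita.3G055400), named for low-temperature induction in rice, was abundant and had 2009, 2509 and 2031 FPKM in the J12 libraries, against 830.4, 815 and 1069 FPKM in the B12 libraries (log2 fold change 1.27, SE 0.25, adjusted p = 0.00345).

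Of 36 dismutase, catalase and ascorbate-glutathione genes, which handle reactive oxygen, 1 was higher and 1 was lower, against 3.97% and 2.38% of all tested genes. The lowered ascorbate peroxidase 6 (Seita.3G268800) was not called without J12 replicate 1, J12 replicate 3 or any single B12 replicate (adjusted p 0.0726 to 0.175). It was also not called with a pseudocount of 0.1, no minimum level, median-ratio or quantile scaling, the replicate block or limma voom (adjusted p 0.064 to 0.146). Catalase 3 (Seita.1G117500), which breaks down hydrogen peroxide, had 2494, 2532 and 1771 FPKM in the J12 libraries, against 731, 1053 and 1037 FPKM in the B12 libraries (log2 fold change 1.27, SE 0.35, adjusted p = 0.0293), and it was not called without J12 replicate 1, J12 replicate 2, B12 replicate 1, B12 replicate 2 or B12 replicate 3 (adjusted p 0.0533 to 0.124). Of 87 class III peroxidases, which act in the cell wall, 6 were higher and 3 were lower. Only 2 were higher without J12 replicate 2, and 3 without B12 replicate 1. Peroxidase 51 (Seita.9G081400) had 26.5, 34.1 and 39.5 FPKM in the J12 libraries, against 8.60, 7.16 and 7.94 FPKM in the B12 libraries (log2 fold change 1.93, SE 0.42, adjusted p = 0.00633). Peroxidase 70 (Seita.2G431300) had 0.825, 1.91 and 0.328 FPKM in the J12 libraries, against 7.35, 11.1 and 3.76 FPKM in the B12 libraries (log2 fold change -2.03, SE 0.35, adjusted p = 0.00119). Of 78 glutathione S-transferases 6 were higher, led by GSTU6, with 3 higher without J12 replicate 1, and GST 23 (Seita.5G453100) was lower with 1.65, 0.113 and 0.495 FPKM in J12, against 13.3, 10.6 and 11.7 FPKM in B12 (log2 fold change -2.97, adjusted p = 5.92e-07). GST calls in the lower direction were 2 without B12 replicate 2. Of 128 cytochrome P450 genes 11 were higher and 3 lower, and between 2 and 6 were higher when any 1 library was left out, the lowest without B12 replicate 1.

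Of 115 genes of auxin response and transport, which steer growth, 7 were higher and 1 was lower, against 3.97% and 2.38% of all tested genes, with 4 higher without J12 replicate 3 and 2 without B12 replicate 1. SAUR76 (Seita.6G170000), a small early auxin gene, had 11.4, 8.30 and 5.90 FPKM in the J12 libraries, against 1.10, 3.53 and 1.34 FPKM in the B12 libraries (log2 fold change 1.72, SE 0.36, adjusted p = 0.00478). At 0 h 22 genes of this list had been lower in JK3 and 3 higher, against 6.02% and 6.78% of all tested genes, and the interaction was called with a more positive difference at 12 h for 12. Seita.3G037900, described as ACC oxidase, the last enzyme of ethylene synthesis, was higher. Seita.7G032100, described only as an ACC oxidase homolog, was lower. Seita.3G037900 had 169, 293 and 180.1 FPKM in the J12 libraries, against 48.8, 75.2 and 68.7 FPKM in the B12 libraries (log2 fold change 1.70, SE 0.35, adjusted p = 0.00432), while Seita.7G032100 had 82.8, 58.1 and 65.0 FPKM in the J12 libraries, against 169, 139 and 194 FPKM in the B12 libraries (log2 fold change -1.28, SE 0.33, adjusted p = 0.0212) and was not called without J12 replicate 2, J12 replicate 3, B12 replicate 1 or B12 replicate 3 (adjusted p 0.0639 to 0.0899). Among 32 gibberellin genes 3 were higher and 3 were lower, and ent-kaurenoic acid oxidase 1 (Seita.7G186700), an enzyme of gibberellin synthesis, had 0.851, 0.347 and 0.388 FPKM in J12, against 10.4, 6.85 and 6.72 FPKM in B12 (log2 fold change -2.55, adjusted p = 1.83e-05).

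Among 89 bHLH factors 6 were higher and 3 lower, against 3.97% and 2.38% of all tested genes. The count of higher ones was 1 without J12 replicate 2 or B12 replicate 1, and 3 without J12 replicate 3 or B12 replicate 2. BHLH148 (Seita.9G098200), known in rice for a link of jasmonate and drought, had 153, 157 and 104 FPKM in the J12 libraries, against 16.6, 21.7 and 24.2 FPKM in the B12 libraries (log2 fold change 2.66, SE 0.51, adjusted p = 0.00296). A second BHLH6 gene (Seita.7G044900), chosen after its values were seen, had 2.52, 1.15 and 2.47 FPKM in the J12 libraries, against 10.3, 8.94 and 11.7 FPKM in the B12 libraries (log2 fold change -1.92, SE 0.26, adjusted p = 0.000124). An L10-interacting protein with a MYB domain (Seita.4G102300) had 0, 0.512 and 0 FPKM in the J12 libraries, against 8.53, 12.4 and 13.2 FPKM in the B12 libraries (log2 fold change -3.41, SE 0.21, adjusted p = 1.85e-08). F-box proteins, which choose proteins for degradation, were higher for 4 and lower for 8 of 258, against 3.97% and 2.38% of all tested genes. Lignin and phenylpropanoid enzymes were higher for 6 (3.82%) and lower for 2 (1.27%) of 157, against 3.97% and 2.38% of all tested genes. None was lower without J12 replicate 3 or B12 replicate 2. Laccase-6 (Seita.5G382700), which couples lignin units, had 15.4, 25.2 and 27.0 FPKM in the J12 libraries, against 2.60, 3.05 and 3.55 FPKM in the B12 libraries (log2 fold change 2.5, SE 0.58, adjusted p = 0.0105).

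Lipid-linked and carbon stores gave single calls, against 3.97% higher and 2.38% lower of all tested genes. Of 19 lipid-transfer proteins nsLTP2 (Seita.3G157400) was higher, with 55.1, 60.0 and 71.5 FPKM in J12, against 12.6, 20.3 and 14.99 FPKM in B12 (log2 fold change 1.92, SE 0.44, adjusted p = 0.00951), and none was lower (1 at an unadjusted p under 0.05 in limma, 0 in limma voom). Of 41 cuticle genes 1 was lower and none higher (2 higher at an unadjusted p under 0.05 in limma, 1 in limma voom). Of 74 starch and sucrose enzymes 1 was higher and none lower (10 lower at an unadjusted p under 0.05 in limma, 2 in limma voom).

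Genes of nutrition and of the cell wall were called in both directions, against 3.97% higher and 2.38% lower of all tested genes. Of 26 nitrate and ammonium genes 3 were higher. None was lower (2 at an unadjusted p under 0.05 in limma, 0 in limma voom). Of 83 phosphate genes 2 were higher and 2 lower, and of 73 iron and zinc genes 3 and 2. Of 62 sugar transporters 4 were higher (2 to 3 when 1 library was left out) and 1 lower. Of 89 expansins, xyloglucan enzymes and cellulose synthases 3 were higher and 3 lower. The high-affinity nitrate transporter 2.1 (Seita.1G116100), which is also a root marker, had 1.35, 2.88 and 2.40 FPKM in the J12 libraries, against 0.200, 0.156 and 0.0165 FPKM in the B12 libraries (log2 fold change 1.49, SE 0.20, adjusted p = 0.000116). Phosphate transporter 1-8 (Seita.9G238300) had 242, 314 and 203 FPKM in the J12 libraries, against 59.3, 83.6 and 55.6 FPKM in the B12 libraries (log2 fold change 1.92, SE 0.28, adjusted p = 0.000274). Cellulose synthase-like D2 (Seita.4G008800), which builds cellulose-like chains of the wall, had 105, 141 and 81.0 FPKM in the J12 libraries, against 8.14, 17.0 and 18.9 FPKM in the B12 libraries (log2 fold change 2.85, SE 0.42, adjusted p = 0.00031). J12 was above B12 in every library for these. The vacuolar sugar carrier SWEET16 (Seita.9G410000) was lower, with 30.8, 27.4 and 23.5 FPKM in J12, against 81.4, 66.6 and 69.1 FPKM in B12 (log2 fold change -1.38, adjusted p = 0.000678). Deoxymugineic acid synthase 1-B (Seita.7G114300), which makes the iron chelator of grasses, had 0.340, 0.0256 and 0.0260 FPKM in J12, against 4.05, 2.94 and 3.88 FPKM in B12 (log2 fold change -2.04, adjusted p = 4.93e-05).

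Genes of protein synthesis and cell division were mostly not called, against 3.97% higher and 2.38% lower of all tested genes. Of 341 ribosomal protein genes 1 was higher and 5 were lower. Small differences were mostly negative, with a median log2 fold change of -0.25, against -0.04 over all tested genes. The highest J12 library lay under the lowest B12 library for 153 of the 341, against 17.9% of all tested genes. The lowest J12 library lay above the highest B12 library for 11, against 15.8%. At an unadjusted p under 0.05 in limma 46 were lower and 6 higher. A pair of 60S protein L4 genes on chromosome 2 went opposite ways. Seita.2G107700 had 4.53, 7.90 and 4.25 FPKM in J12, against 0.351, 0.166 and 0 FPKM in B12 (log2 fold change 2.45). Seita.2G056200 had 0, 0 and 0 FPKM in J12, against 4.33, 5.05 and 4.67 FPKM in B12, at least 12.02-fold lower in J12 against the floor of 3 fragments. Of 84 genes of histones, DNA replication and cyclins 4 were lower and none higher. At an unadjusted p under 0.05 in limma 20 were lower and 4 higher, and limma voom called 4 lower and 0 higher. Only 2 were lower without J12 replicate 2 or B12 replicate 2. The GINS subunit PSF3 (Seita.6G102200), part of the replicative helicase, had 0, 0 and 0 FPKM in J12, against 3.57, 2.30 and 3.76 FPKM in B12, at least 23-fold lower in J12. None of 26 clock genes, which keep daily time, was called (2 higher and 2 lower at an unadjusted p under 0.05 in limma, 0 in limma voom).

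The largest differences in mean FPKM were in genes of high abundance. DORMANCY-ASSOCIATED PROTEIN 1 (Seita.5G115800), named for its level in dormant buds, had 155, 64.0 and 85.0 FPKM in the J12 libraries, against 1348, 1973 and 2639.9 FPKM in the B12 libraries (log2 fold change -4.33, SE 0.54, adjusted p = 5.14e-05). A type 2 metallothionein (Seita.5G103100), a cysteine-rich metal binder, had 1386, 902 and 1016 FPKM in the J12 libraries, against 2533, 2255 and 2272 FPKM in the B12 libraries (log2 fold change -1.12, SE 0.28, adjusted p = 0.0161), and it was not called without J12 replicate 2, J12 replicate 3 or B12 replicate 1 (adjusted p 0.056 to 0.0787). The gene Seita.7G291500, with no description, had 3054, 3312 and 2637 FPKM in J12, against 8248, 6686 and 8651 FPKM in B12 (log2 fold change -1.39, SE 0.33, adjusted p = 0.0122). It had been higher in JK3 at 0 h (log2 fold change 1.48). The gene Seita.7G236500, also with no description, showed the largest gain, with 2944, 3434 and 2467 FPKM in J12, against 1219, 1154 and 1027 FPKM in B12 (log2 fold change 1.37, SE 0.30, adjusted p = 0.00665).

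The variety difference at 12 h was set beside those at 0 and 24 h, which rest on other libraries. In J0 vs B0 3050 genes (12.8%) were called, and in J24 vs B24 1085 (4.55%). Across genes, the log2 fold changes of 12 h correlated at 0.52 with those of 0 h and at 0.69 with those of 24 h (Pearson's r over 23824 genes, which are not independent). Of the genes higher in J12, 389 were also higher at 0 h, 41.1% of the 12 h genes and 24.1% of the 0 h genes. At 24 h 325 were, 34.4% of the 12 h genes and 60.0% of the 24 h genes. Of the genes lower in J12, 321 were also lower at 0 h (56.7% and 22.4%) and 255 at 24 h (45.1% and 47.0%). At all 3 times 260 genes were higher and 202 lower.

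Genes called in the same direction at all 3 times included the largest fold changes, and most of these had no description. Seita.5G024300 had 119, 113 and 118 FPKM in the J12 libraries, against 0.703, 0 and 1.22 FPKM in the B12 libraries (log2 fold change 6.24, SE 0.80, adjusted p = 6.82e-05). Seita.8G050200 had 125, 99.99 and 135 FPKM in J12, against 3.60, 0 and 1.01 FPKM in B12 (log2 fold change 5.84). Seita.8G216900 had 0, 0 and 0 FPKM in J12, against 106, 153 and 147 FPKM in B12, at least 2136-fold lower in J12. Their differences at 0 and 24 h were 4.42 and 4.89 for Seita.5G024300, and 5.43 and 6.46 for Seita.8G050200. For Seita.8G216900 they were -5.53 and -4.09. In all 9 JK3 libraries 16 of the lowered genes were listed at 0, and in all 9 B175 libraries 14 of the raised genes were. At 12 h alone, 52 of the lowered genes were listed at 0 in J12 and 24 of the raised ones were listed at 0 in B12.

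The neighbours Seita.8G119000 and Seita.8G119100 had the lowest fold changes of the genes called lower at all 3 times. Seita.8G119000 had 3.81, 0 and 0 FPKM in the J12 libraries, against 905, 1042 and 657 FPKM in the B12 libraries (log2 fold change -8.98, SE 0.82, adjusted p = 1.44e-06). Seita.8G119100 had 16.7, 1.68 and 2.05 FPKM in the J12 libraries, against 1615, 2675 and 1767 FPKM in the B12 libraries (log2 fold change -8.55, SE 0.97, adjusted p = 1.81e-05). Their differences were -4.50 and -3.55 at 0 h, smaller than at 12 h (interaction -4.49 and -5.0, adjusted p at most 0.0427).

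The interaction with 0 h held 1398 genes (5.87%), with a more positive variety difference at 12 h for 2.28% of tested genes and a more negative one for 3.58%. It held 861 genes without B12 replicate 1, 877 without J12 replicate 2, 897 without B12 replicate 3 and 901 without J12 replicate 1. Of the 1398, 319 were also called in J12 vs B12. In 38 of them the varieties differed in opposite directions at 0 and 12 h, 15 higher and 23 lower in J12. Without J12 replicate 2 there were 24 such genes. TIFY 11f, given above, had the largest interaction among them. The gene Seita.8G104900, with no description, had 48.5, 82.0 and 67.0 FPKM in J0, against 2.69, 10.5 and 3.32 FPKM in B0 before stress. At 12 h it had 113, 119 and 138 FPKM in J12, against 329.6, 554 and 335 FPKM in B12 (interaction -5.20, SE 0.59, adjusted p = 0.000141), and its 12 h difference was not called without J12 replicate 1, J12 replicate 2 or B12 replicate 2 (adjusted p 0.0537 to 0.0789). The WRKY19 gene Seita.7G302500 had 22.7, 21.1 and 24.2 FPKM in J0, against 2.35, 3.94 and 1.13 FPKM in B0 before stress and, as given above, less in J12 than in B12 at 12 h (interaction -4.29, SE 0.47, adjusted p = 0.000119). No gene was called in opposite directions at 12 and 24 h in limma (6 at an unadjusted p under 0.05 at 24 h, 2 in limma voom).

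**Figure D4:**
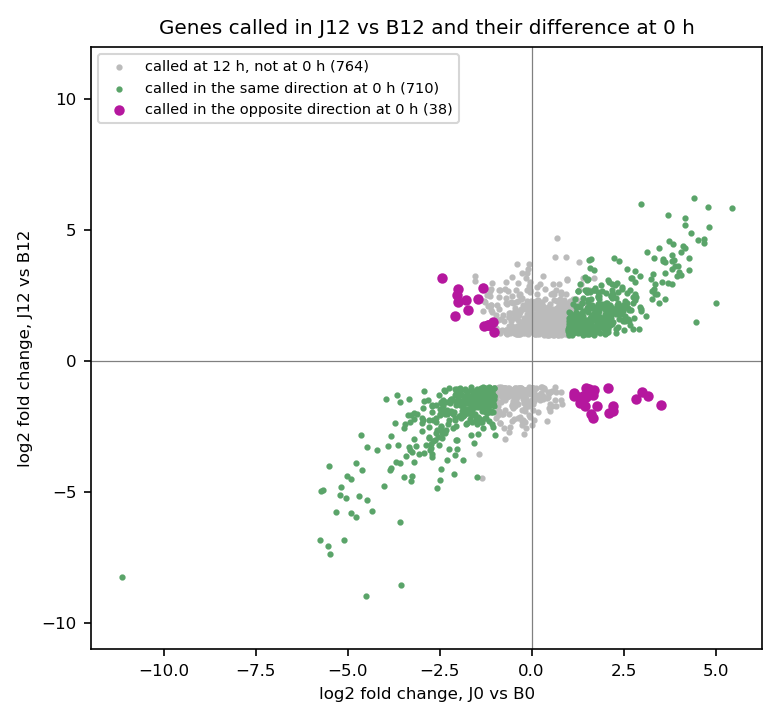
Log2 fold change of JK3 over B175 at 12 h against that at 0 h for the 1512 genes called at 12 h. Grey genes were not called at 0 h, green genes were called in the same direction, and the 38 purple genes in the upper left and lower right were called in the opposite direction.

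The interaction with 24 h held 67 genes (0.281%), 0.122% more positive and 0.16% more negative at 12 h, of which 41 were called in J12 vs B12. It held 37 without B12 replicate 2, 43 without J12 replicate 2, and 44 without J12 replicate 1 or B12 replicate 1. A set of 25 genes, 11 higher and 14 lower, was called at 12 h and in both interactions and not called at 0 or 24 h. The count was 5 with a pseudocount of 0.1, 7 with a mean FPKM of at least 1, 15 with median-ratio scaling, 16 with quantile scaling and 2 with limma voom, and the cause was not tested. CYTOCHROME P450 704C1 (Seita.7G206600), of a group that hydroxylates fatty acids, led the higher genes with 19.8, 20.5 and 20.2 FPKM in the J12 libraries, against 1.84, 1.41 and 0.816 FPKM in the B12 libraries (log2 fold change 3.19, SE 0.16, adjusted p = 2.85e-09). At 0 h it had 0, 0.0170 and 0 FPKM in J0, against 0.205, 0.0702 and 0.0844 FPKM in B0, and at 24 h 0.113, 0.271 and 0.421 FPKM in J24, against 0.252, 0.179 and 0 FPKM in B24. Only J12 held it at a high level.

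Further genes of this kind were a norbelladine synthase (Seita.8G041700), an enzyme named for alkaloid synthesis in other plants, with 7.01, 4.44 and 4.33 FPKM in the J12 libraries, against 0.0590, 0 and 0.0583 FPKM in the B12 libraries (log2 fold change 2.57, SE 0.21, adjusted p = 3.93e-07). SUPPRESSOR OF GAMMA RESPONSE 1 (Seita.1G217800), a NAC factor that answers DNA damage in Arabidopsis, had 2.38, 4.16 and 2.75 FPKM in the J12 libraries, against 0.0852, 0.0665 and 0.147 FPKM in the B12 libraries (log2 fold change 1.87, SE 0.17, adjusted p = 1.31e-06). Both were below 0.2 FPKM in every B12 library. Lower in J12 was BHLH6 (Seita.7G045100), with 4.09, 3.97 and 3.50 FPKM in the J12 libraries, against 25.5, 23.5 and 20.2 FPKM in the B12 libraries (log2 fold change -2.30, SE 0.19, adjusted p = 5.23e-07). IQ-DOMAIN 1 (Seita.6G087300), a calmodulin-binding scaffold, had 1.10, 1.12 and 0.776 FPKM in the J12 libraries, against 8.49, 12.1 and 8.88 FPKM in the B12 libraries (log2 fold change -2.43, SE 0.17, adjusted p = 7.17e-08). A universal stress protein (Seita.2G428900) had 28.1, 19.2 and 26.3 FPKM in the J12 libraries, against 120.0, 169 and 97.9 FPKM in the B12 libraries (log2 fold change -2.33, SE 0.30, adjusted p = 6.63e-05). The G-type lectin kinase Seita.8G242700 had 0, 0 and 0 FPKM in J12, against 5.14, 4.09 and 5.16 FPKM in B12, at least 22.6-fold lower in J12. A zealexin A1 synthase (Seita.9G176600), a P450 of maize phytoalexin synthesis, had 0.199, 0.309 and 0.0989 FPKM in J12, against 3.92, 3.94 and 2.84 FPKM in B12 (log2 fold change -1.92).

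The called genes were spread unevenly over the genome. Chromosomes were read from the number before the G in each identifier. On chromosome 8 16.7% of 1395 tested genes were called, 116 higher and 117 lower, against 4.89% to 7.88% on the other 8 chromosomes. The same chromosome led at 0 h with 21.1% and at 24 h with 13.5%. In windows of 50 neighbouring tested genes, the median was 2 called genes, and 63 of 467 windows held none. The 4 windows with at least 15 called genes all lay on chromosome 8. The one from Seita.8G083700 to Seita.8G092500 held 14 higher and 7 lower genes, with 16 NBS-LRR genes and 8 receptor-like kinase genes among its 50. The one from Seita.8G227100 to Seita.8G237900 held 5 higher and 13 lower genes.

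Neighbouring genes could differ in opposite ways. The stretches given here were chosen after their values were seen, and called genes stand at their ends. Their counts follow in part from that choice. Of all tested genes 6.35% were called. Between Seita.8G226300 and Seita.8G229000, 15 tested genes held 2 higher and 5 lower members, with 6 of these called the same way at all 3 times. SAG39 and CALMODULIN-BINDING PROTEIN 60 B stand at its ends. The TIFY 11 genes Seita.9G517900, Seita.9G518000 and Seita.9G518100 lie side by side on chromosome 9, and all 3 were higher at 12 h with none called the same way at all 3 times. A further TIFY stretch from Seita.9G251600 to Seita.9G252500 held 3 raised genes among 6 tested.

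**Figure D5:**
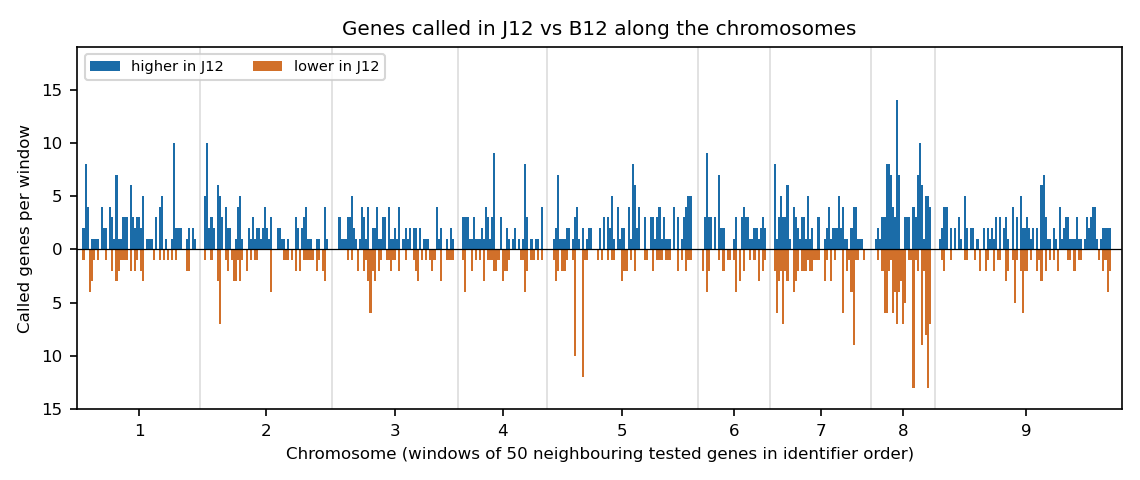
Number of called genes in each window of 50 neighbouring tested genes along the 9 chromosomes, higher in J12 above 0 and lower below it. The tallest bars on both sides stand on chromosome 8, where the 4 windows with at least 15 called genes lie.

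The terms of the deposited gene ontology annotation are given as a description, with no test. Of all tested genes 3.97% were called higher and 2.38% lower. The terms were taken from the top of a ranking by these same shares, so high shares follow in part from that choice. The largest shares of higher genes among 673 terms with at least 20 tested genes were in regulation of defense response (7 of 32, 21.9%) and response to chitin (19 of 91, 20.9%). Regulation of jasmonic acid mediated signaling had 7 of 37 (18.9%). The largest shares of lower genes were in photosystem I (15 of 22, 68.2%), chlorophyll binding (12 of 28, 42.9%) and photosystem II (13 of 31, 41.9%). ADP binding, the term that NBS-LRR genes carry, had 36 higher and 40 lower of 270. Of the called genes 71.6% had a description, against 72.7% of all tested genes.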

How the data were processed

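Leaf RNA-seq was used. The authors deposited 1 table of FPKM per gene and library with descriptions and gene ontology terms, and per the submitters' processing notes fastp, HISAT2, HTSeq, R 3.2.0 and DESeq2 were used. These notes also list mm10, a mouse build, which does not match the foxtail millet identifiers, so the build is taken as not settled and no coordinates are given. Strand was not given in the sources used here, so overlapping genes cannot be told apart. FPKM steps gave whole fragments for 100% of genes, 34738627 to 38798886 per library. Counting intervals were not used, and the floor of 3 fragments covers counting error only.

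Groups came from the sample titles. FPKM were tested as log2(FPKM + 1) for genes with a mean of at least 0.1 FPKM, with limma 3.58.1 (variance trend, 6 group means over 18 libraries, two-sided, Benjamini-Hochberg over 23824 genes) in R 4.3.3, with Python 3.11.15, numpy 2.4.6, pandas 2.3.3 and matplotlib 3.10.9 for the rest. Interactions were called at an adjusted p under 0.05 alone. Named genes were the 8 largest changes each way with a described protein, the leading member of each gene list each way, the 5 largest differences of mean FPKM each way, the leading genes that turned or differed only at 12 h or held at all 3 times, and SiDREB153, SiDREB80 and SiDREB159. Others are marked as chosen after their values were seen. The comparison, the members and the lists were chosen with earlier results of these data known. Alternatives were a pseudocount of 0.1, a minimum mean of 1 FPKM or no minimum, quantile and median-ratio scaling, a replicate block, a fit of the 6 libraries alone, limma voom on recovered fragments, and leaving out each library. On simulated data for J12 vs B12, 96% of 200 genes changed 4-fold were called, and 0 others, of 23662 genes tested. The simulation gave every library the B12 means and every gene the same spread, and it changed only genes with many fragments. It checks that the steps run, and the error rates in the real libraries were not measured. No identifier matched the RefSeq gene table (0 matches), so no sequences are shown.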

Additional observations from a re-analysis of the deposited data

Results flagged for a closer look

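Of the genes given by name, 62 had a variety difference at 12 h that differed from that at 0 h in the test of the difference itself, the limma interaction (adjusted p at most 0.0464), and 15 had one that differed from that at 24 h (adjusted p at most 0.0487). Of all tested genes 5.87% and 0.281% were called in these interactions. The genes named as turning or as differing only at 12 h were picked by a called interaction. Their place in these counts was fixed by that choice, so the counts are no further evidence. Most other named genes were picked by their 12 h difference or after their values were seen. The 12 h difference is a part of each interaction, so that choice pushes the interaction toward its sign. The shared signs of the groups of genes below are thus no separate evidence either. The values below are the log2 difference of JK3 minus B175 at 12 h minus the same difference at the other time, so a positive value means that JK3 stood higher relative to B175 at 12 h.

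Against 0 h, the named jasmonate genes that differed were positive, with 5.60 for TIFY 11f, 4.76 for TIFY 11a, 3.53 for TIFY 11b, 1.32 for the TIFY 11c gene Seita.9G518000, 3.50 for TIFY 11e and 2.70 for TIFY 5. Allene oxide synthase 1 had 3.06 and lipoxygenase 5 had 3.58. Among SiDREBs the value was 4.82 for SiDREB128, 4.61 for SiDREB112, 3.81 for SiDREB46, 3.86 for SiDREB44 and 2.28 for SiDREB153, and it was -1.71 for SiDREB77. The named calcium genes that differed were positive, with 2.22 for CML19, 2.55 for CML27, 1.5 for calcium-dependent protein kinase 4 and 1.53 for CIPK29.

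Other regulators with a positive value were the B3 protein (4.0), BHLH148 (3.29), SUPPRESSOR OF GAMMA RESPONSE 1 (2.2), SAUR76 (3.81) and the gibberellin-responsive protein 2 of Seita.2G369400 (1.46). WRKY19 (-4.29), the BHLH6 genes Seita.7G045100 (-2.73) and Seita.7G044900 (-2.41), PP2C37 (-4.18) and IQ-DOMAIN 1 (-2.18) were negative. Of kinases, the cysteine-rich kinase 12 gene had -1.32 and the G-type lectin kinase Seita.8G242700 had -1.95.

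Protective and transport proteins with a positive value were Lea5-A (3.14), Lea14-A (1.94), NDR1/HIN1-like protein 3 (2.67) and nitrate transporter 2.1 (1.11). Negative ones were LEA31 (-4.50), the universal stress protein (-2.15) and SWEET16 (-1.84). Enzymes with a positive value were trehalose-phosphate phosphatase 7 (3.28), cellulose synthase-like D2 (2.93), glucanase 14 (3.75), the ACC oxidase Seita.3G037900 (1.78), cytochrome P450 704C1 (3.34) and norbelladine synthase (2.04). Negative ones were ascorbate peroxidase 6 (-2.52), GST 23 (-2.25), the ACC oxidase homolog Seita.7G032100 (-2.96), deoxymugineic acid synthase (-1.42), the carboxylase subunit of Seita.3G382200 (-2.43), cytochrome P450 714B1 (-1.31) and zealexin A1 synthase (-1.0).

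Genes with no description were positive for Seita.6G138300 (4.56), Seita.4G229800 (3.01), Seita.8G253000 (2.91), Seita.7G268400 (1.73), Seita.7G051700 (1.72), Seita.7G236500 (1.63) and Seita.2G099800 (1.01). They were negative for Seita.8G104900 (-5.20), Seita.8G119100 (-5.0), Seita.8G119000 (-4.49), Seita.7G291500 (-2.87) and Seita.9G151800 (-2.11).

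Against 24 h, positive values were those of cytochrome P450 704C1 (3.04), Seita.4G229800 (3.21), norbelladine synthase (2.23), SUPPRESSOR OF GAMMA RESPONSE 1 (1.77), Seita.7G051700 (2.01), Seita.7G268400 (1.83) and Seita.2G099800 (1.23). Negative ones were those of the BHLH6 gene Seita.7G045100 (-2.19), the carboxylase subunit of Seita.3G382200 (-2.24), the ACC oxidase homolog Seita.7G032100 (-2.34), the universal stress protein (-2.91), the G-type lectin kinases Seita.8G228300 (-2.04) and Seita.8G242700 (-1.68), IQ-DOMAIN 1 (-2.13) and zealexin A1 synthase (-1.5).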

How the results depend on the processing

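The counts of J12 vs B12 were 780 to 1023 higher and 497 to 746 lower over 8 other settings, and 624 to 847 higher and 433 to 559 lower when 1 library was left out, with 824 of 1512 calls kept in all 6 such fits, 1360 with limma voom and 1267 with median-ratio scaling. The interaction with 0 h held 861 to 1051 genes when 1 library was left out. The interaction with 24 h, 67 genes, held 15 with a pseudocount of 0.1, 24 with a mean FPKM of at least 1, 7 with limma voom and 37 to 51 when 1 library was left out. The 25 genes called at 12 h alone and in both interactions became 5 with a pseudocount of 0.1, 7 with a mean FPKM of at least 1, 15 with median-ratio scaling, 16 with quantile scaling, 2 with limma voom and 18 to 24 when 1 library was left out. These counts and those of the gene lists were run under the settings after the data were seen. The 38 genes of opposite direction became 24 to 38 when 1 library was left out. The cause was not tested in any of these.

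Of 163 named genes 160 were called, and 111 kept their call in each setting and left-out fit that held the gene. Only SiDREB159, not called, changed sign, with -0.07 without J12 replicate 1, -0.11 without B12 replicate 2 and a range of -0.17 to 0.61 when 1 library was left out. The labels do not say whether replicate numbers pair the libraries. Deviations of same-numbered libraries correlated at -0.09, 0.16 and -0.01 between J12 and B12. They correlated at -0.06, -0.11 and 0.02 between J0 and B0, and at -0.18, 0.16 and 0.23 between J24 and B24. So few values cannot settle a pairing. With the replicate block 928 genes were higher and 573 lower, with 907 and 554 of the calls kept. In lists with at most 3 called members in a direction, that count was 0 to 5 when 1 library was left out. Counting error is largest for genes with few fragments.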
